A study of Homo sapiens with 2 samples.

Results

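The 29 genes described here encode enzymes of purine and pyrimidine nucleotide metabolism, most of which make nucleotides or recover them from free bases and nucleosides. They were taken by gene symbol from a fixed list, and all 29 were among the 46427 genes of the table, as 13 genes of de novo purine synthesis, 5 of de novo pyrimidine synthesis, 7 of salvage and 4 nucleotide kinases. RNA came from NK92, an established line derived from a natural killer cell malignancy, after exposure to PPMX-T003, an antibody against transferrin receptor 1 (TfR1), through which cells take up iron. The cells were grown in Artemis-Medium 1 with 2% human serum and held for 18 h. They were then split equally between a control and an exposed dish with fresh medium. For the last 6 h the exposed dish was given PPMX-T003 at 10 µg/mL, while the control dish was given no antibody.

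Each condition was 1 library from 1 dish of 1 cell line, so the differences have no replicate check and carry no p-value. The library of the control dish held 46766416 counted reads and that of the exposed dish 43178462. The methods describe equal further culture of both dishes, while the control columns of the table are named for 0 h. All 8 natural killer markers examined were detected. In sum they had 3784 CPM in the control library and 4198 CPM in the PPMX-T003 library. CD7, GZMB, IL2RB, NKG7 and PRF1 were higher in the PPMX-T003 library, while NCAM1, KLRD1 and FCER1G were lower. FCER1G was the least read of them, with 99 and 86 counts. CPM are counts scaled to the library total after its adjustment by a scaling factor (TMM). Of the 19 markers of other cell types, 14 had at most 3 counts in each library, PAX5 had the most with 169 and 78, and all 19 together reached 4.51 and 2.46 CPM. A smaller share of cells with a transcript and less of that transcript per cell cannot be told apart in such bulk samples.

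A cell builds a purine ring step by step on phosphoribosyl pyrophosphate (PRPP), the activated form of ribose phosphate, and ends at inosine monophosphate (IMP), from which AMP and GMP are made. A pyrimidine ring is made before it is joined to PRPP, and ends at UMP, from which CTP is formed. Salvage enzymes reach the same nucleotides at a lower energy cost, and kinases raise monophosphates to the di- and triphosphates used in RNA and DNA synthesis, which dividing lymphoid cells need in large amounts.

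The transcripts of these genes were present at similar levels in both libraries. Of the 29 genes, 28 had at least 20 counts over both libraries and were compared. The remaining gene, ADSS1, which encodes the muscle form of adenylosuccinate synthetase, had 0 counts in each. No tested gene was 2-fold higher or lower in the PPMX-T003 library. Of all 13665 tested genes 1.27% were higher and 1.38% lower by at least that fold. Of the 8359 genes with at least 1000 counts, as most of these had, only 5 were 2-fold changed in either direction. At 1.2-fold, 1 gene, GUK1, was higher and 0 were lower, beside 12.2% and 12.4% of all tested genes. Among the 8359 genes with at least 1000 counts, 233 were higher and 427 lower by that fold. GUK1 fell short of it with median-of-ratios scaling, with the deposited TPM and after a fit on GC content and length. A smaller difference was read against the 95% Clopper-Pearson interval of the share of a gene's reads that came from the exposed dish, which covers counting error only. By that measure 6 of 28 genes had an interval above 0, beside 21.8% of all tested genes, and 8 of 28 had one below 0, beside 23.9%. With upper-quartile scaling these counts were 8 above and 6 below 0. That scaling moved all tested genes up by a median of 0.012, and the shares of all genes given here are for the main scaling only.

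Deep coverage narrows these intervals, and 26 of the genes had at least 1000 counts. Among the 8359 genes of that depth, 27.8% had an interval above 0 and 32.1% below 0, and of the 26 genes 6 lay above and 8 below. The shares are thus near those of all genes with at least 1000 counts. That set was not matched to the 26 genes in depth beyond the same floor. The median log2 fold change of the 28 genes was -0.010, beside -0.0020 for all tested genes. With upper-quartile scaling, which moved all tested genes up by a median of 0.012, that of the 28 genes was 0.0016. Single genes ranged from -0.24 for GMPS to 0.27 for GUK1. The central 95% of genes with at least 1000 counts ran from -0.33 to 0.27, and GUK1 alone of the 26 genes passed an end of it.

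**Figure D1:**
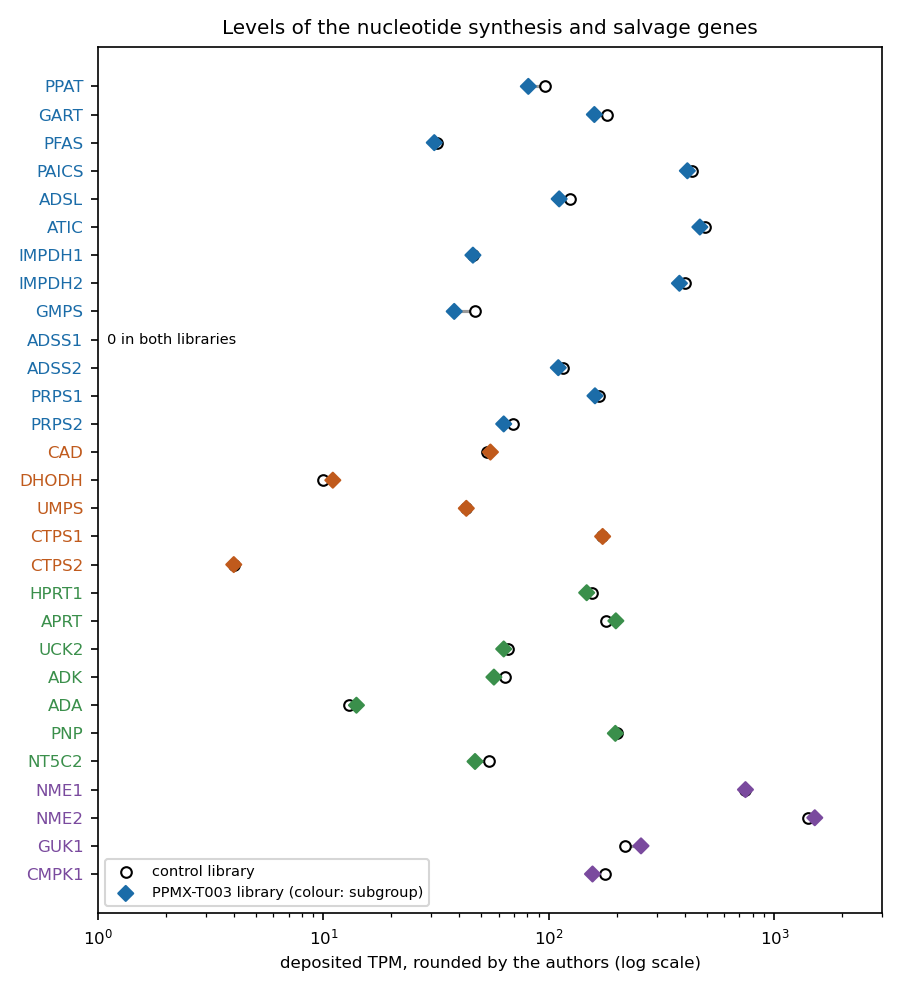
Deposited TPM (a level per transcript length, rounded, log scale) of the 29 genes in the control library (open circles) and the PPMX-T003 library (diamonds, coloured by subgroup as the gene names are). The genes run from 0 for ADSS1 and 4 for CTPS2 to 1412 and 1510 for NME2, and the points of both libraries lie close together for each gene.

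PRPP itself is made by the synthetases PRPS1 and PRPS2. PRPS1 stood at 167 TPM in the control library and 160 TPM in the PPMX-T003 library, TPM being a level per transcript length. Its log2 fold change from counts was -0.011, with an interval from -0.060 to 0.037 that holds 0. PRPS2 stood at 69 and 63 TPM, with a log2 fold change of -0.082 (-0.15 to -0.012). PRPS1 held 70.8% of the TPM of the pair in the control library and 71.7% in the other. The interval of PRPS2 held 0 with upper-quartile scaling.

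PPAT catalyses the committed step of purine synthesis, the transfer of an amide nitrogen to PRPP, and carries an iron-sulfur cluster. It was read 7372 times in the control library and 5931 times in the PPMX-T003 library, which is 158 and 137 CPM. Its log2 fold change was -0.20 (-0.25 to -0.15), which placed it at percentile 11.2 of the genes with at least 1000 counts. PAICS, which encodes a bifunctional enzyme of later steps of the same route, was at 692 and 668 CPM. Its log2 fold change was -0.052 (-0.074 to -0.029), so the intervals of these neighbours do not overlap. After a fit on GC content and length, PPAT was at -0.070 and PAICS had turned to 0.028.

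PPAT (chr4:56393362-56435615) and PAICS (chr4:56410507-56464578) are transcribed in opposite directions from adjacent starts, and are shown here because they lie head to head and differ in the size of their change. In the RefSeq tables for GRCh38.p14 the start of PPAT is 137 bases from the nearest PAICS start. The 136 bases between them, chr4:56435616-56435751 on the plus strand, from PPAT to PAICS, have a GC content of 75%, and capitals mark 3 copies of the GC box GGGCGG:
PPAT to PAICS: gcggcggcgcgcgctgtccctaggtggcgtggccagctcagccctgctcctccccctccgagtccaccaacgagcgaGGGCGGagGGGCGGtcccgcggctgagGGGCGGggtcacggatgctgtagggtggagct
The GC box, read on both strands and searched after the values were seen, is in a promoter window of 300 bases for 48.3% of the 27305 genes in the table and for 24 of the 27 listed genes that have one. An earlier PAICS start lies inside PPAT, and the gene spans overlap over 25109 bases. Whether counting used the strand is not given in the sources used here, so reads from the shared stretch may have gone to either gene.

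The E-box CACGTG, a motif bound by MYC and MAX, was also searched in the promoter windows, which run from 250 bases before to 50 after a start. Of the 29 genes, 27 had a window, and IMPDH2 and ADSL had none. The motif was in a window of 5 of the 27 genes, and in 8.77% of all 27305 genes with one. By window, the motif was in 5 of 42 for these genes and in 7.26% of all 35116. Its surroundings are given for these genes, with the motif in capitals and each sequence on the strand of its gene. For ATIC the copies begin 46 bases before and at base 30 after the start, in order, and for DHODH 159 bases before.
ATIC, chr2:215312004-215312027, plus strand: ccggcgggcCACGTGataagcccg
ATIC, chr2:215312079-215312102, plus strand: ctacctgcgCACGTGgtgccgccg
DHODH, chr16:72008576-72008599, plus strand: gctactgcgCACGTGcacccaacc
NME1, chr17:51153584-51153607, plus strand: gctgcgaacCACGTGggtcccggg
PAICS, chr4:56435783-56435801, plus strand: tatttgctgCACGTGgaaa
PPAT, chr4:56435783-56435806, minus strand: ggagatttcCACGTGcagcaaata
PAICS and PPAT thus share 1 copy, read from either strand. The genes with the motif did not move together: PPAT and PAICS were lower, DHODH and NME1 were higher, and the interval of ATIC held 0. After the fit the signs of PAICS and NME1 turned. The NRF1 core CGCATGCG was found in a window of CTPS1, 1 gene of 27, and in that of 2.46% of all genes with a window. A match describes the letters of a window and not the binding of a factor.

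GART, whose product carries out several steps after PPAT, was lower as well. It was read at 251 CPM in the control library and 232 CPM in the PPMX-T003 library, and its log2 fold change was -0.11 (-0.15 to -0.074). After the fit on GC content and length GART was at -0.062. PFAS, which adds the next nitrogen of the ring, was at 77.2 and 76.9 CPM, a difference not detectable at this depth (-0.0055, -0.074 to 0.063). Its value after the fit was -0.078, which lay outside that interval. ATIC, which closes the ring to give IMP, was among the most abundant of the genes per length, at 493 and 467 TPM. Its log2 fold change of -0.020 (-0.049 to 0.0087) had an interval with 0 inside, which moved below 0 with median-of-ratios scaling.

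ADSL encodes adenylosuccinate lyase, which acts both in the making of IMP and in its conversion to AMP. It was read 5515 times in the control library and 5522 times in the smaller PPMX-T003 library, a log2 fold change of 0.12 (0.065 to 0.17). On the deposited TPM scale the direction turned, from 124 to 111 TPM. Its TPM change lay 0.28 log2 units under that of its counts (-0.28), while the central 95% of 6112 genes with at least 20 TPM in both libraries ran from -0.13 to 0.038. The cause was not tested, and ADSL shares exons with another annotated gene.

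IMP goes to GMP through IMP dehydrogenase and GMP synthetase, encoded by GMPS. GMPS had the lowest log2 fold change of the 28 genes, -0.24 (-0.29 to -0.19), the lowest interval of the list as well. It was read 8376 times, or 179 CPM, in the control library and 6546 times, or 152 CPM, in the PPMX-T003 library, and stood at percentile 6.70 of the genes with at least 1000 counts. IMPDH2, the main form in dividing lymphocytes, was at 401 and 379 TPM with a log2 fold change of -0.023 (-0.058 to 0.011). The gap between GMPS and IMPDH2 was smaller after the fit on GC content and length (-0.13 and -0.076), and with longest transcripts in it both were at -0.11. IMPDH1 was at 46 TPM in both libraries with a log2 fold change of 0.074 (-0.011 to 0.16), an interval that lay above 0 with upper-quartile scaling. IMPDH2 held 89.7% and 89.2% of the TPM of the pair. The AMP branch begins with adenylosuccinate synthetase, here ADSS2 alone, whose log2 fold change was -0.026 (-0.078 to 0.026) at 116 and 110 TPM.

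Over the 12 tested genes of purine synthesis, 1 interval lay above 0, 5 lay below 0 and 6 held 0, beside 27.8% above and 32.1% below among all genes with at least 1000 counts. With upper-quartile scaling, which moved all tested genes up by a median of 0.012, 2 lay above and 4 below. Their median log2 fold change was -0.024, and their summed TPM was 2202 in the control library and 2056 in the PPMX-T003 library. The summed TPM includes ADSL, for which counts and TPM differed in direction. On the TPM scale, all genes with at least 20 TPM lay lower than by counts, by a median log2 difference of -0.054. By counts, the 12 genes held 0.262% of the reads in the control library and 0.252% in the PPMX-T003 library.

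**Figure D2:**
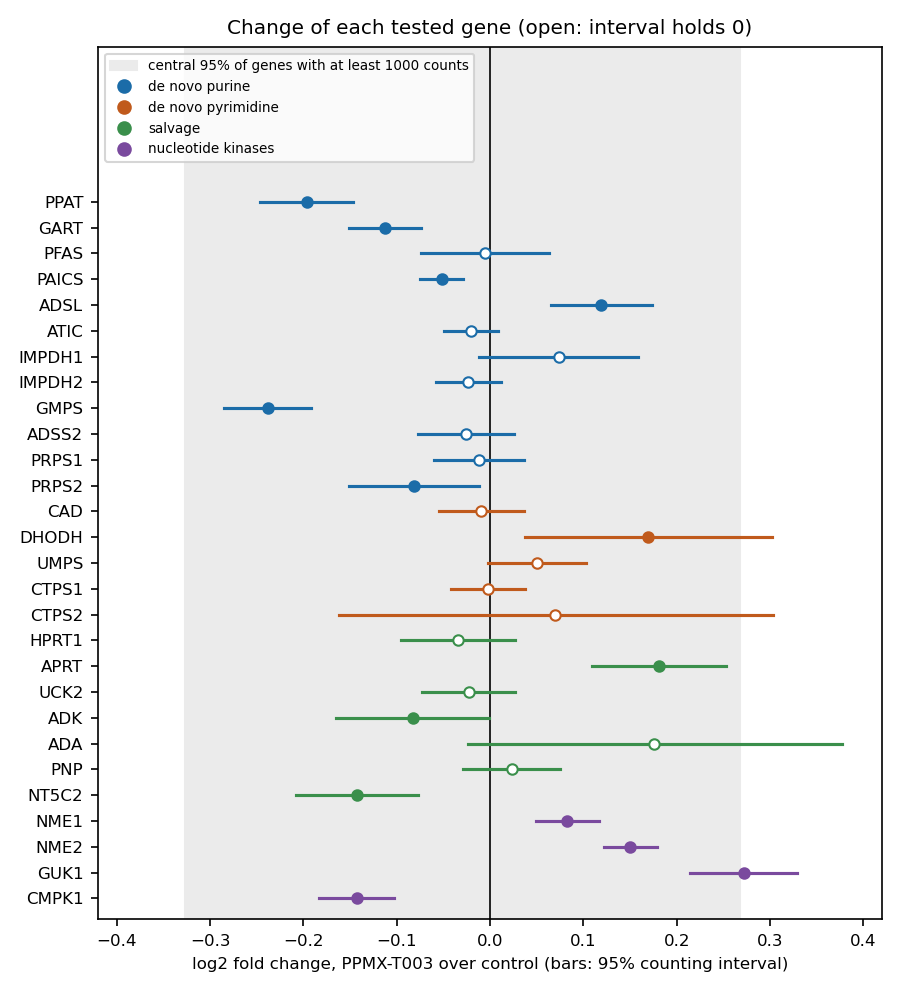
Log2 fold change of each of the 28 tested genes, PPMX-T003 over control, on the horizontal axis, with bars for the 95% counting interval, open points where it holds 0 and colours for the subgroups. GMPS and PPAT lie farthest to the left and GUK1 farthest to the right, and the grey band is the central 95% of genes with at least 1000 counts, from -0.33 to 0.27.

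Pyrimidine synthesis starts on CAD, a single protein that carries the opening 3 enzyme activities of the route. CAD was read at 172 CPM in the control library and 171 CPM in the PPMX-T003 library, with a log2 fold change of -0.0092 (-0.055 to 0.037). DHODH, the mitochondrial enzyme that follows, was the least abundant gene of the route after CTPS2, at 10 and 11 TPM. It was read 919 and 953 times, a log2 fold change of 0.17 (0.037 to 0.30), with a wide interval because of the low count. UMPS, which joins the ring to PRPP, was at 43 TPM in both libraries (0.051, -0.0017 to 0.10).

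CTP synthetase turns UTP into CTP. CTPS1, the form that proliferating lymphocytes rely on, was at 172 and 173 TPM, and CTPS2 was at 4 TPM in both libraries. CTPS1 thus held 97.7% of the TPM of the pair in each, and its log2 fold change was -0.0024 (-0.042 to 0.037). Among the 5 genes of pyrimidine synthesis, DHODH alone had an interval without 0, which lay above it, beside 21.8% above and 23.9% below among all tested genes, and the median log2 fold change was 0.051. With upper-quartile scaling the interval of UMPS also lay above 0.

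Salvage returns bases and nucleosides to the nucleotide pool. HPRT1, which recovers hypoxanthine and guanine, was at 96.9 CPM in the control library and 94.6 CPM in the PPMX-T003 library (-0.034, -0.096 to 0.027). APRT, which recovers adenine, was read 3083 and 3222 times, or 65.9 and 74.7 CPM. Its log2 fold change of 0.18 (0.11 to 0.25) was the highest among the 7 salvage genes. The transcript is short and GC-rich, with a GC content of 63.6%, and its change was -0.026 once a fit on GC content and transcript length was subtracted.

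Adenosine is either phosphorylated by adenosine kinase (ADK) or deaminated by adenosine deaminase (ADA). ADK was at 64 and 57 TPM, with a log2 fold change of -0.083 (-0.16 to -0.0013) that lay at the edge of the counting error. The interval held 0 with upper-quartile scaling. ADA, whose loss causes an immunodeficiency of lymphocytes, was at 13 and 14 TPM, and its 404 and 421 reads allowed a log2 fold change from -0.024 to 0.38. PNP, which releases bases from inosine and guanosine, was at 201 and 197 TPM (0.023, -0.029 to 0.075).

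NT5C2 is a cytosolic nucleotidase that dephosphorylates IMP and GMP, and so works against salvage. It was read 4125 times in the control library and 3445 times in the PPMX-T003 library, a log2 fold change of -0.14 (-0.21 to -0.077). After the fit on GC content and length NT5C2 was at -0.067. UCK2, which phosphorylates uridine and cytidine, was at 144 and 141 CPM (-0.023, -0.073 to 0.027), and at -0.080 after the fit. With longest transcripts in the fit UCK2 was at -0.0038. Of the 7 salvage genes, 1 had an interval above 0 and 2 had one below 0, beside 27.8% and 32.1% of all genes with at least 1000 counts, and their median log2 fold change was -0.023.

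Of the 4 nucleotide kinases, 3 had an interval above 0 and 1 had one below 0, where 27.8% and 32.1% of all genes with at least 1000 counts had such an interval. GUK1, which phosphorylates GMP and dGMP, had the highest log2 fold change of the 28 genes, 0.27 (0.21 to 0.33), from 99.6 CPM in the control library to 120 CPM in the PPMX-T003 library. It stood at percentile 97.6. CMPK1, the kinase of UMP and CMP, was lower, at 178 and 156 TPM (-0.14, -0.18 to -0.10).

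NME1 and NME2 encode the nucleoside diphosphate kinases that charge the last phosphate, and were the most abundant of the 29 genes per length. NME2 was at 1412 TPM in the control library and 1510 TPM in the PPMX-T003 library, with a log2 fold change of 0.15 (0.12 to 0.18). NME1 was at 737 and 744 TPM (0.083, 0.049 to 0.12). After the fit NME2 was at 0.018 and NME1 at -0.00037, and with longest transcripts NME2 was at -0.046. The genes lie in tandem (chr17:51153559-51162168 and chr17:51165536-51171744), and reads can be divided among them and the readthrough gene NME1-NME2. That gene took 6.87% of the reads of the locus in the control library and 7.23% in the other. Over all 3 the log2 fold change was 0.13 (0.11 to 0.15), a value that does not depend on how the reads were divided. Of 25 pseudogenes named for a gene of the list, 3 had at least 20 counts, and all 25 together had 105 and 90 counts, so few reads were counted to such copies.

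The differences were also set beside the GC content of the transcripts, which ran with the log2 fold change in all genes and in these. Of 9 tested genes with a GC content under 45%, 0 had an interval above 0 and 6 had one below 0, beside 7.36% and 55.1% of the 3098 genes of that class with at least 1000 counts. Of 12 genes from 45% to 55%, 3 had an interval above 0 and 2 below, beside 27.7% and 27.3% of 2807 genes. Of 7 genes at 55% and over, 3 had an interval above 0 and 0 below, beside 54.7% and 7.95% of 2314 genes. Across the 28 genes the log2 fold change and GC content had a Pearson r of 0.74 and a Spearman rho of 0.78. Across 8219 genes with at least 1000 counts they were 0.50 and 0.54. These are correlations across genes that share the same 2 libraries, and genes are not independent replicates.

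PPAT has a GC content of 37.9%, GMPS 42.8%, and GUK1 63.9%. After removal of a robust fit of log2 fold change on GC content and transcript length, their values were -0.070, -0.13 and 0.079. All 3 kept their direction at a smaller size, and in a fit on longest transcripts, chosen after seeing the data, they were -0.11, -0.11 and 0.094. Among genes whose interval lay off 0, the signs of PAICS, APRT and NME1 turned, to 0.028, -0.026 and -0.00037. Of the genes whose interval held 0, 5 turned as well, IMPDH1, ADSS2, CTPS1, HPRT1 and PNP. Over all 28 genes the values after the fit ran from -0.16 for CMPK1 to 0.17 for DHODH. The value of CMPK1 depends on the transcript taken, and was -0.069 with the longest. The part of base composition in these differences was not tested beyond this fit.

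Other genes of nucleotide metabolism were taken from 9 lists with 84 genes. Of these, 61 were tested and none was 2-fold changed. An interval above 0 was found for 18 of the 61, and one below 0 for 13, beside 21.8% and 23.9% of all tested genes, and their median log2 fold change was 0.018. The counts per list that follow are of a few genes each, many of them deeply read, and among all genes with at least 1000 counts 27.8% lay above and 32.1% below 0. For the supply of deoxynucleotides, 7 of 13 genes had an interval above 0 and 4 below. RRM2, the small subunit of ribonucleotide reductase and the most abundant of that list in CPM, was at 729 and 797 CPM (0.13, 0.11 to 0.15). After the fit RRM2 was at 0.21, while the median of that list went from 0.041 to 0.014. Of 7 genes that supply ribose phosphate, 5 lay above 0 and 2 below, and TKT was highest in CPM at 347 and 360 (0.054, 0.022 to 0.086). After the fit TKT and the median of that list were both at -0.022.

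Of 10 tested genes that supply one-carbon units and glycine, 1 lay above 0 and 2 below, and MTHFD2 had the highest level at 455 and 448 CPM (-0.023, -0.051 to 0.0049). For the other nucleotide kinases, 0 of 9 lay above 0 and 2 below. Of the nucleoside transporters, 2 of 3 lay above 0, among them SLC29A1, which was at 125 and 137 CPM (0.14, 0.088 to 0.19). After the fit SLC29A1 was at 0.076. Of 4 nucleotidases, 1 lay above 0 and 1 below, the latter being NT5C3A (-0.20, -0.31 to -0.087). NT5C3A was the highest of that list in the control library, at 31.7 CPM, and level with NT5C in the other, at 27.6 CPM. After the fit NT5C3A was at -0.11. For the partners of PRPP synthetase, 1 of 2 lay above 0, PRPSAP1 (0.17, 0.062 to 0.28).

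Of 8 tested genes for other purine interconversion and breakdown, 0 lay above 0 and 1 below, and AMPD2 was highest at 124 and 128 CPM. Of 5 for other pyrimidine salvage and breakdown, 1 lay above 0 and 1 below. The former was UPP1 (0.15, 0.071 to 0.23), which was at 0.060 after the fit. Among enzymes of these routes with an iron-sulfur cluster, PPAT and DPYD were tested and XDH had 0 counts. DPYD, which degrades uracil, was read 1718 times in the control library and 1435 times in the PPMX-T003 library (-0.14, -0.24 to -0.040). As with PPAT, its transcript has a low GC content (40.2%), and after the fit its value was -0.048. TFRC, which encodes TfR1, was at 407 CPM in the control library and 422 CPM in the PPMX-T003 library, with a log2 fold change of 0.052 (0.023 to 0.082) and 0.17 after the fit, while its rounded TPM was 184 in both. MYC was at 306 and 346 CPM (0.18, 0.15 to 0.21), and at 0.12 after the fit.

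**Figure D3:**
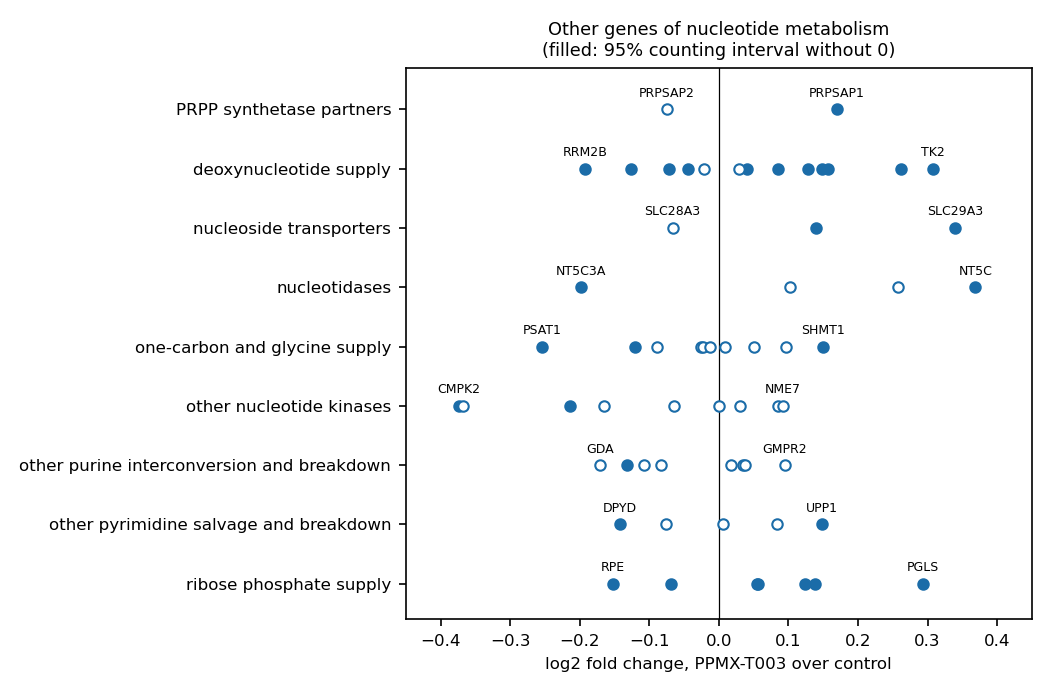
Log2 fold change, PPMX-T003 over control, of each of the 61 tested genes in the 9 other lists, 1 line per list, filled where the 95% counting interval does not hold 0, with the lowest and highest gene of each list named. CMPK2 lies farthest to the left at -0.37 and NT5C farthest to the right at 0.37.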

How the data were processed

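RNA was sequenced from 1 control and 1 PPMX-T003 library, made with a poly(A) kit that keeps the strand. According to the submitters' processing notes the tools were Trimmomatic 0.38, HISAT2 2.2.0, StringTie 2.1.3b and edgeR 3.17, with the build hg38. The authors deposited read counts per gene, not scaled between libraries, in which the comma between groups of digits was removed here. The deposited TPM and FPKM hold only whole numbers, as rounded by the authors, so each is a score here, and FPKM was not used. Counts were scaled by TMM factors (1.0007 and 0.9993, with trims of 30% on log ratios and 5% on mean level), and log2 fold changes of CPM used a prior count of 2. The work was done with pandas 2.3.3, numpy 2.4.6, statsmodels 0.14.6, scipy 1.17.1 and matplotlib 3.10.9 under Python 3.11.15, and was tested on simulated data. Genes with at least 20 counts over both libraries were tested, and intervals cover counting error only.

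Every gene of the list is given. Of the other lists, the text names the gene with the highest CPM, any gene at least 2-fold changed with enough counts, and MYC and TFRC, except for 1 gene that is not reported here. The iron-sulfur list is named in full, the plot of the other lists names the lowest and highest gene of each, and the genes among the other observations were chosen after their values were seen. The members and lists were chosen with earlier results of these data known. GC content and length are medians over transcripts of the basic set of GENCODE 29, known for 87.5% of tested genes and not the annotation of the counts, and the fit used 9949 genes with at least 200 counts. Gene positions and promoters are from RefSeq on GRCh38.p14. The spans of 8 genes overlap another gene with at least 20 counts, among them ATIC with FN1, ADSL with SGSM3 and NT5C2 with CNNM2. Alternatives were other scalings, prior counts of 0.5 and 5, other filters, a 1.2-fold threshold, the deposited TPM with a pseudocount of 1, the fit, and genes that share no exon.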

Additional observations from a re-analysis of the deposited data

How the results depend on the processing

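No paired analysis was possible because there is only 1 library in each group, which also means that none could be left out. With upper-quartile, median-of-ratios and library size scaling and with prior counts of 0.5 and 5, the log2 fold change of each of the 28 genes stayed inside its counting interval. It left that interval for 11 genes with the deposited TPM, 14 after the fit and 13 with longest transcripts in the fit. The median was 0.0016, -0.020 and -0.012 with these scalings, -0.019 after the fit on GC content and length, -0.036 in a fit on longest transcripts, chosen after seeing the data, and -0.011 over 23 genes that share no exon. It was -0.010 with either of the other count filters, under which 0 genes were 2-fold changed. Intervals above and below 0 numbered 8 and 6, 6 and 9, and 6 and 8 with the scalings in the order given. All tested genes moved with them, by medians of 0.012, -0.0097 and -0.0021. With the deposited TPM the median was -0.063, on a scale where all genes with at least 20 TPM lay lower by a median of 0.054 (-0.054). With a 1.2-fold threshold, 1 gene, GUK1, was called in place of 0, beside 12.2% of all tested genes that were higher and 12.4% that were lower. Of the 8359 genes with at least 1000 counts, 233 were higher and 427 lower by that fold. GUK1 was under that threshold with median-of-ratios scaling (0.26), the deposited TPM (0.24) and either fit (0.079 and 0.094).

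Among genes whose interval lay off 0, the direction of ADSL turned with the deposited TPM (-0.16). After the fit, PAICS (0.028), APRT (-0.026) and NME1 (-0.00037) turned, and with longest transcripts PAICS (0.047), APRT (-0.030) and NME2 (-0.046) did. Of the genes whose interval held 0, the sign turned for 4 with upper-quartile scaling, 3 with the deposited TPM, 5 after the fit and 4 in the fit on longest transcripts. Beyond the fit, the cause was not tested. Counts of 404 for ADA and 314 for CTPS2 in the control library limit what can be seen there.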

Other observations

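In the other lists, 3 genes with at least 1000 counts, chosen after their values were seen, lay outside the central 95% of all genes of that depth. Genes with fewer counts were not set against that range. CMPK2, a mitochondrial UMP-CMP kinase that is induced by interferon, was read 3250 times in the control library and 2312 times in the PPMX-T003 library. Its log2 fold change was -0.37 (-0.45 to -0.30), at percentile 1.44, and unlike PPAT and GMPS its transcript is GC-rich (55.9%), so that the value after the fit was larger in size (-0.44). NT5C, a nucleotidase that acts on deoxynucleotides, was read 1001 and 1192 times, with a log2 fold change of 0.37 (0.25 to 0.49) at a GC content of 64.8%, and 0.16 after the fit. PGLS, an enzyme of the pentose phosphate pathway that supplies ribose phosphate, was read 1119 and 1265 times (0.29, 0.18 to 0.41), at a GC content of 66.0%, and its value after the fit was 0.092.

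Purine synthesis also draws on serine and glycine. PHGDH, the entry enzyme of serine synthesis, had 0 counts in both libraries, while PSAT1, the next enzyme, was read 2909 times in the control library and 2249 times in the PPMX-T003 library (-0.25, -0.33 to -0.17). The value of PSAT1 after the fit was -0.23. PSPH, of the same route, was read 936 and 923 times (0.097, -0.036 to 0.23), an interval that holds 0, and was at 0.085 after the fit. These genes were also chosen after their values were seen.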
